A study of Mus musculus with 2 samples.

Results

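The let-7 and miR-98 family was examined through the mature guide arms of its precursors, in RNA of extracellular vesicles (EVs) from mouse plasma. Its members were taken by name, with no filter on their values, though earlier results of these data were known. Of the 1900 miRNAs on the array, 10 carried a listed name. The study compared C57BL/6 mice, a strain known for good recovery of blood flow after the femoral vessels are tied off, with BALB/c mice, known for poor recovery. Male mice of both inbred strains were 8 weeks old, had the left femoral vessels ligated and cut, and gave blood 24 h later. The vesicle RNA of 5 mice was pooled for each strain, labelled with Cy5 and hybridised to 1 array, and each strain was thus measured once. No mutant, drug or unligated group was measured on these arrays. With 1 pool per strain there is no SD between mice and no test between the strains, and all differences below describe these arrays. The array, a 3D-Gene miRNA oligo chip, holds 1 spot for each miRNA, and the light of its bound, labelled RNA is read as an intensity in arbitrary units.

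The let-7 miRNAs are among the most conserved animal miRNAs. A miRNA guides Argonaute proteins to messenger RNAs that pair with its seed, the bases next to its 5′ end, and so lowers their translation and stability. let-7 was found in the worm as a timer of development, and in mammals it accumulates as cells differentiate, represses growth genes such as Ras, Myc and Hmga2, and is held back in stem cells by the RNA-binding protein LIN28. Members of the family are abundant in most adult tissues, blood cells and endothelium, and circulate in plasma.

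All 10 names matched RefSeq's mature sequences of the mouse assembly GRCm38.p6. The sequences are shown because the members differ by so few bases that their spots measure closely related RNAs. Each is written 5′ to 3′ with the seed, bases 2 to 8, in capitals.
mmu-let-7a-5p: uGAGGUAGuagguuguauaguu
mmu-let-7c-5p: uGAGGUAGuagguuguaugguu
mmu-let-7b-5p: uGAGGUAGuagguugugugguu
mmu-let-7d-5p: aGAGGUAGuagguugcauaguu
mmu-let-7e-5p: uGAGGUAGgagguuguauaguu
mmu-let-7f-5p: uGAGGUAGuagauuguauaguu
mmu-miR-98-5p: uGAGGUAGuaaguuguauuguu
mmu-let-7g-5p: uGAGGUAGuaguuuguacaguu
mmu-let-7i-5p: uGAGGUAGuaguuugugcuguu
mmu-let-7j: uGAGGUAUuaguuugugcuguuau

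The seed GAGGUAG was shared by all members except let-7j, whose seed was GAGGUAU. Counted from 1 at the 5′ end and written with the base of let-7a first, let-7c differed from let-7a by A19G, let-7e by U9G and let-7f by G12A, 1 base each. let-7b carried A17G and A19G, and let-7d U1A and U16C. let-7g and let-7i shared G12U and U18C. let-7i also had A17G and A19U, and miR-98 had G11A and A19U. Over their first 22 bases, let-7j and let-7i differed by 1 base only, in the seed. The probe sequences are not given in the sources used here, and binding of one member's RNA to the spot of another was not tested.

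The genes of the family are spread over the genome, several of them in clusters. In GRCm38.p6, let-7a (chr13:48538239-48538260), let-7f (chr13:48537889-48537910) and let-7d (chr13:48536078-48536099) lie beside each other on the minus strand of chromosome 13. let-7c (chr15:85706616-85706637) and let-7b (chr15:85707325-85707346) follow each other on the plus strand of chromosome 15, within the bounds of the long non-coding RNA gene Lncppara. A second copy of let-7c (chr16:77599672-77599693, plus strand) lies next to Mir99a, and let-7e (chr17:17830366-17830387, plus strand) between Mir99b and Mir125a, within the bounds of Spaca6. A second copy of let-7f (chrX:151912353-151912374) and miR-98 (chrX:151913229-151913250) lie on the plus strand inside Huwe1, which encodes a ubiquitin ligase. let-7g (chr9:106178846-106178867, plus strand) lies within Wdr82, and let-7i (chr10:122985698-122985719, minus strand) and let-7j (chr3:140028281-140028304, plus strand) stand alone. A second let-7a gene, Mirlet7a-2, lies 5211 bases from Mir100 on chromosome 9. Since let-7a, let-7c and let-7f each come from more than 1 gene, their spots cannot tell these genes apart.

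The family was detected in the EVs of both strains, with 8 of 10 members above the detection threshold in C57BL/6 EVs and 6 of 10 in BALB/c EVs. Of all 1900 miRNAs, 33.6% were detected in C57BL/6 EVs and 9.84% in BALB/c EVs. A miRNA counted as detected where its spot was more than 2 SD above the mean of the empty BLANK spots, that is above 106 in C57BL/6 EVs and 111 in BALB/c EVs. let-7a, let-7b, let-7c, let-7d, let-7g and let-7i were detected on both arrays, as were 9.37% of all miRNAs. let-7e and let-7f were detected only in C57BL/6 EVs, as were 24.2% of all miRNAs. let-7j and miR-98 were detected in neither strain.

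**Figure D1:**
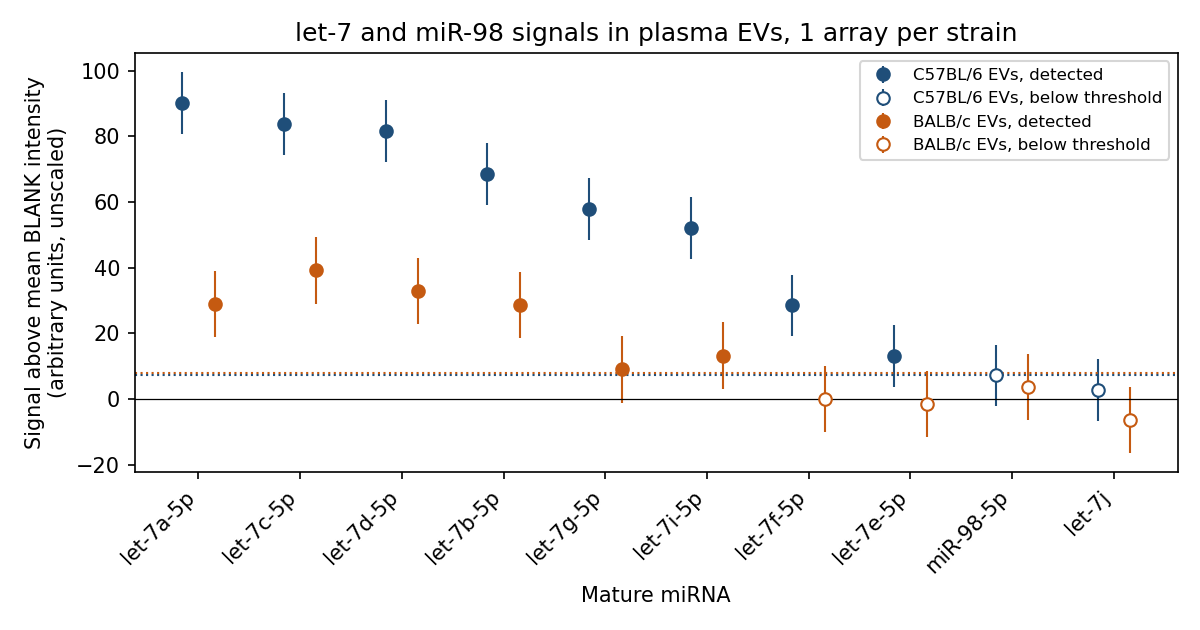
Signal above the mean BLANK intensity (arbitrary units, unscaled) of each family member in C57BL/6 EVs and BALB/c EVs, with 1 array per strain. Bars span 2 SD of all BLANK spots on either side, dotted lines mark the detection thresholds and open symbols lie below them; let-7a has 90.1 in C57BL/6 EVs and 28.9 in BALB/c EVs.

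The highest signals on both arrays came from the spots of let-7a, let-7b, let-7c and let-7d. The spot of let-7a, which is made from the chromosome 13 cluster among others, read 188 in C57BL/6 EVs and 131 in BALB/c EVs. let-7c read 182 in C57BL/6 EVs and 142 in BALB/c EVs. let-7d read 180 in C57BL/6 EVs and 135 in BALB/c EVs. All of these spots were brighter than their surroundings, and all were far above the threshold on both arrays. The surroundings of let-7a were the brightest of any member in C57BL/6 EVs, at 161, and read 113 in BALB/c EVs. let-7b read 167 in C57BL/6 EVs and 131 in BALB/c EVs. In units of the BLANK SD used for detection, let-7a lay 24.9 above the background in C57BL/6 EVs and 7.18 in BALB/c EVs, and let-7c lay 23.1 above it in C57BL/6 EVs and 9.75 in BALB/c EVs. None of 174 spots that carry no probe was as bright as any of these spots on its array.

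let-7g and let-7i, the detected members with G12U, were dimmer and came close to the threshold in BALB/c EVs. let-7g read 156 in C57BL/6 EVs and 111 in BALB/c EVs, where it lay 2.24 SD above the background and 6 of the 174 spots without a probe were brighter. let-7i read 150 in C57BL/6 EVs and 116 in BALB/c EVs, where it lay 3.30 SD above the background and no such spot was brighter. The spots of let-7g and let-7i sit side by side on the array, and their surroundings were bright, as were those of let-7a. Around let-7g the array read 154 in C57BL/6 EVs and 123 in BALB/c EVs, and around let-7i 154 in C57BL/6 EVs and 112 in BALB/c EVs. So let-7i in C57BL/6 EVs and let-7g in BALB/c EVs were no brighter than their surroundings on the array, which held for 7.87% of the 178 shared miRNAs on at least 1 array. The part of this local light in the signals was not tested.

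let-7f and let-7e were above the threshold in C57BL/6 EVs alone. let-7f, made from both the chromosome 13 and the X chromosome cluster, read 127 in C57BL/6 EVs and 103 in BALB/c EVs, where it lay 0.0303 SD above the background. let-7e read 111 in C57BL/6 EVs, at 3.63 SD, and 101 in BALB/c EVs, where it was below the mean of the BLANK spots. On unscaled signals, the bound for C57BL/6 over BALB/c was at least 3.52-fold higher for let-7f and at least 1.62-fold higher for let-7e, taken against the lowest signal detected in BALB/c EVs (8.08 above background) and with no allowance for spot noise. Neither bound stayed above 1 once the ratio of the shared miRNAs was taken off, so that no fold is given on that scale. Both members differ from let-7a by 1 base, and both spots were dimmer than that of let-7a on both arrays.

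miR-98 and let-7j had only an upper limit. miR-98 read 105 in C57BL/6 EVs, 1.98 SD above the background and thus just under the threshold of 2 SD, and 106 in BALB/c EVs, at 0.941 SD. let-7j read 101 in C57BL/6 EVs and 96.0 in BALB/c EVs. let-7i, which shares all but 1 of the compared bases with let-7j, was detected in both strains.

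Few neighbours in the order of the signals were apart by more than the spot noise. Above background, in C57BL/6 EVs the order was let-7a (90.1), let-7c (83.7), let-7d (81.7), let-7b (68.5), let-7g (57.9), let-7i (52.2), let-7f (28.5) and let-7e (13.1). In BALB/c EVs it was let-7c (39.2), let-7d (32.9), let-7a (28.9), let-7b (28.7), let-7i (13.3) and let-7g (9.01). Probes differ in how well they bind and label, so that these are orders of signals and not of RNA amounts. Setting each gap against 2 SD of the difference between BLANK spots (13.3 in C57BL/6 EVs, 14.2 in BALB/c EVs), the C57BL/6 order had breaks between let-7i and let-7f and between let-7f and let-7e. The BALB/c order had a break between let-7b and let-7i. No other neighbours were apart by more than that noise.

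Every member detected on both arrays had the higher unscaled signal in C57BL/6 EVs. Without scaling, the ratio of C57BL/6 to BALB/c was 6.42-fold for let-7g, 3.94-fold for let-7i, 3.12-fold for let-7a, 2.48-fold for let-7d, 2.39-fold for let-7b and 2.14-fold for let-7c. The median over the 178 miRNAs detected on both arrays was 3.93-fold. A brighter array, more vesicles in the plasma and more miRNA per vesicle cannot be told apart here. The ratios were therefore read relative to that median, on the log2 scale, which makes any single factor between the arrays cancel.

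On this relative scale the 6 shared members had a median of -0.50, where 0 is the median of all shared miRNAs, with 4 of them below 0 and 2 above. All 6 were above 0, with medians of 1.48, 0.62 and 1.74, when the arrays were left unscaled, set on the spike controls, or each set on the median signal of the miRNAs it detected. With the normexp correction and quantile normalization the median was -0.09. let-7c was lowest at -0.88 (range -1.38 to -0.29 when both signals are moved by 2 SD of the BLANK spots). It was followed by let-7b at -0.72 (-1.36 to 0.09), let-7d at -0.66 (-1.22 to 0.02) and let-7a at -0.33 (-0.92 to 0.43). let-7i was at 0.0041 (-1.10 to 2.30). let-7g was highest at 0.71, with a lower limit of -0.63 and no upper limit, because its BALB/c signal was smaller than the noise allowed for.

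Only the range of let-7c stayed below 0, and no range stayed above 0. Among the 178 shared miRNAs, the range stayed below 0 for 18% and above 0 for 39.9%. No member was over 2-fold lower or over 2-fold higher relative to the shared miRNAs, whereas 21.3% of the shared miRNAs were over 2-fold lower in C57BL/6 EVs and 32.6% over 2-fold higher. This count depended on the scaling. Set on the shared 75th percentile, let-7b, let-7c and let-7d were over 2-fold lower (36.5% of the shared miRNAs), and with detection at 3 SD let-7c was (23.6%). All 6 members were over 2-fold higher when left unscaled (78.1%) or when each array was set on its own detected median (82.6%), and let-7g and let-7i were when set on the spike controls (52.2%). The quartiles of all shared miRNAs were -0.84 and 1.32, and 5 of the 6 members lay between them. let-7c lay just below the lower quartile. All shared miRNAs ran from -3.40 to 3.55.

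**Figure D2:**
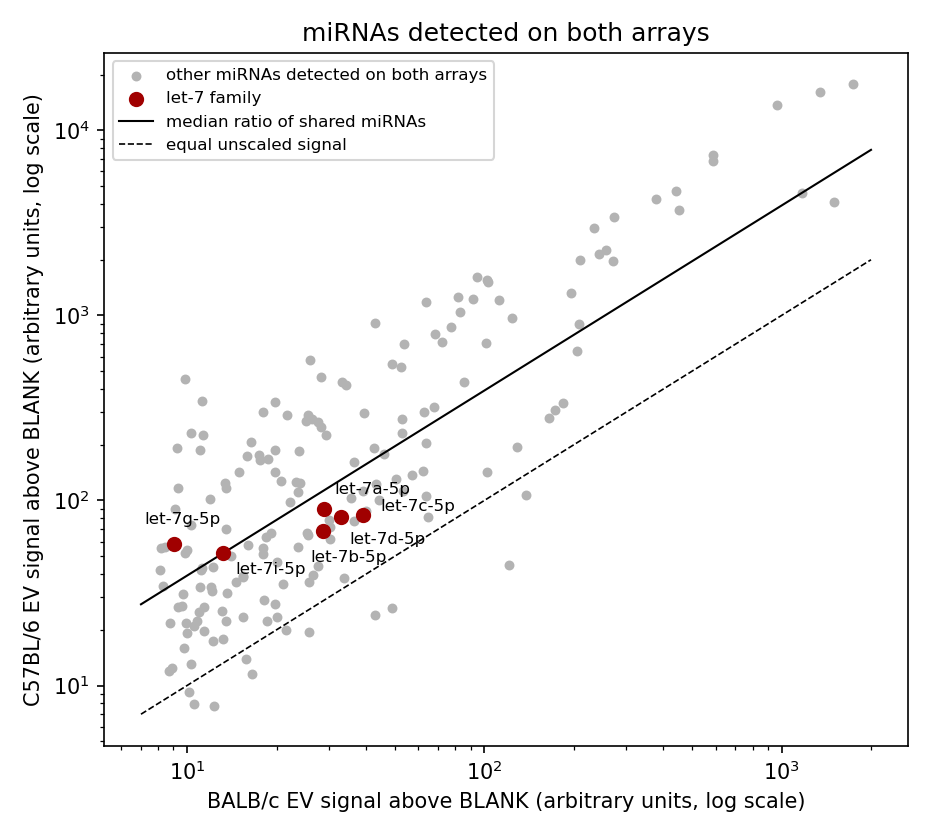
Signal above BLANK in C57BL/6 EVs (vertical, log scale) and in BALB/c EVs (horizontal, log scale) for the 178 miRNAs detected on both arrays, with the 6 let-7 members in red. The solid line is the median ratio of 3.93 and the dashed line equal signal; let-7a, let-7b, let-7c and let-7d lie below the solid line, let-7i on it and let-7g above it.

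**Figure D3:**
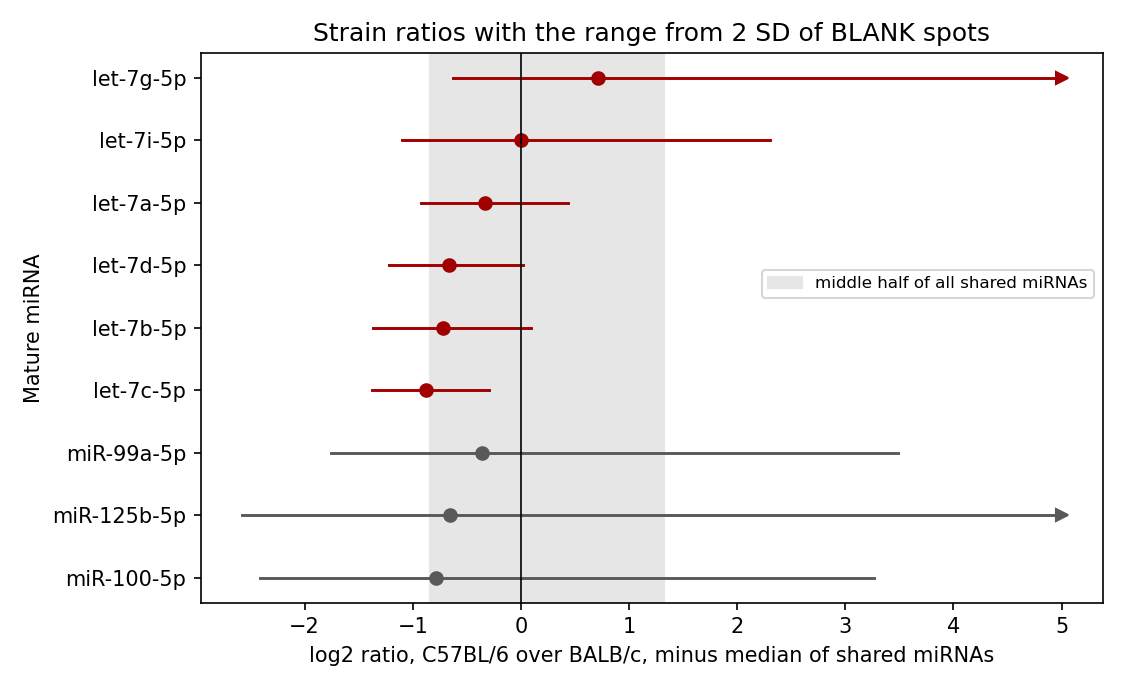
log2 ratio of C57BL/6 over BALB/c minus the median of the shared miRNAs, for the 6 let-7 members (red) and the 3 miRNAs of neighbouring genes (grey) detected on both arrays, with the range from 2 SD of the BLANK spots; arrows mark a range without an upper limit. The shaded band runs between the quartiles of all shared miRNAs, -0.84 and 1.32, and only let-7c has a range that ends below 0; left unscaled or set on the spike controls, all 6 members have ratios above 0.

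On signals above the BLANK mean, the let-7g share of the family signal was larger in C57BL/6 EVs by slightly more than the spot noise. No other single share differed by more than that noise. Shares were taken over the 6 shared members, and such shares do not depend on the scaling between arrays. let-7c made 19.3% of the summed signal in C57BL/6 EVs and 25.8% in BALB/c EVs, whereas let-7g made 13.3% in C57BL/6 EVs and 5.94% in BALB/c EVs. let-7i made 12.0% in C57BL/6 EVs and 8.73% in BALB/c EVs. The shares of let-7a (20.8% in C57BL/6 EVs, 19.0% in BALB/c EVs), let-7b (15.8% in C57BL/6, 18.9% in BALB/c) and let-7d (18.8% in C57BL/6, 21.7% in BALB/c) were closer. The share of let-7g thus differed by 7.40 percentage points, against 6.98 for 2 SD of the difference between 2 spots, and those of the other members differed by less than that noise. No allowance was made for comparing 6 shares. The BALB/c signal of let-7g was also close to the threshold, with a share of -0.70% to 12.6% within 2 SD. let-7g and let-7i together held 25.4% in C57BL/6 EVs and 14.7% in BALB/c EVs, a difference of 10.7 points against a noise of 9.87. That noise takes the errors of the 2 spots as independent, and an error shared by these neighbouring spots would make it larger. Whether they share error was not tested, so the pair is not a second difference beyond noise. With the local background subtracted, neither the let-7g difference nor that of the pair can be read. let-7g then held 1.09% of the detected members in C57BL/6 EVs and had no signal in BALB/c EVs, and let-7i had none in C57BL/6 EVs. With normexp and quantile normalization, let-7g held 9.08% of the members detected in C57BL/6 EVs and 8.91% of those detected in BALB/c EVs. The share of let-7i was then 8.39% in C57BL/6 EVs and 10.6% in BALB/c EVs. These normexp sums ran over 8 members in C57BL/6 EVs and 6 in BALB/c EVs, not over the 6 shared members. They therefore do not compare the strains as the shares above do. All members detected on an array numbered 8 in C57BL/6 EVs and 6 in BALB/c EVs. Out of these, the brightest one held 18.9% in C57BL/6 EVs (let-7a) and 25.8% in BALB/c EVs (let-7c). With the local background subtracted, let-7c was the brightest in both strains, at 27.5% in C57BL/6 EVs and 34.6% in BALB/c EVs. Both pairs of shares are taken over unlike sets of members, and their sizes do not compare the strains.

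**Figure D4:**
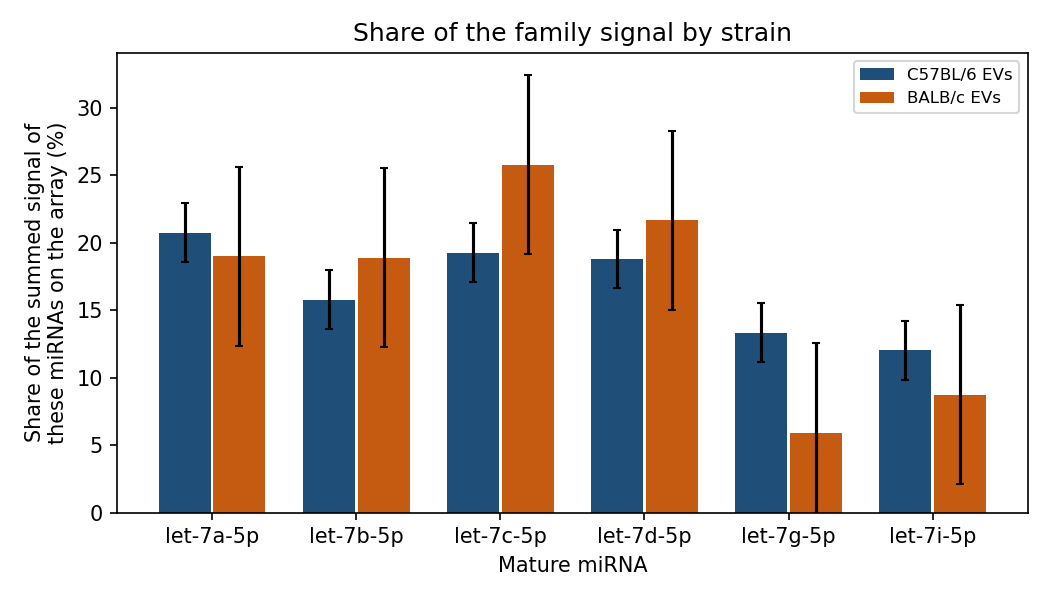
Share (%) of each let-7 member in the summed signal of the 6 members detected on both arrays, for C57BL/6 EVs (left bars) and BALB/c EVs (right bars), with 2 SD of 1 BLANK spot as error bars. let-7g has 13.3% in C57BL/6 EVs and 5.94% in BALB/c EVs, a difference of 7.40 points against 6.98 for 2 SD of a difference.

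The 6 shared members together made 0.322% of the summed signal of the 178 shared miRNAs in C57BL/6 EVs and 0.903% in BALB/c EVs. The 10 brightest miRNAs carry most of this sum. Without the 10 brightest, the members made 0.836% in C57BL/6 EVs and 1.99% in BALB/c EVs.

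The other arms of the same precursors are usually degraded after the guide arm is loaded. Of 11 spots for 12 such 3p arms, 8 were detected in neither strain, as were 65.9% of all miRNAs. Of the rest, 2 were detected in C57BL/6 alone, as were 24.2% of all miRNAs, and 1 in BALB/c alone. let-7d-3p read 117 in C57BL/6 EVs, at 5.13 SD, and 107 in BALB/c EVs. let-7c-1-3p read 106 in C57BL/6 EVs, at 2.01 SD, and 109 in BALB/c EVs, where it was below the higher threshold of that array. let-7b-3p read 105 in C57BL/6 EVs and 116 in BALB/c EVs, at 3.38 SD, and 0.474% of all miRNAs were, like it, detected in BALB/c alone. The surroundings of that BALB/c spot were brighter than the spot itself, at 164.

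The RefSeq table held 2 further mouse miRNAs with the let-7 seed, let-7k and miR-1961. let-7k, which like let-7e has U9G relative to let-7a, read 111 in C57BL/6 EVs, at 3.43 SD, and 101 in BALB/c EVs. It was thus detected only in C57BL/6, as were let-7e and 24.2% of all miRNAs. miR-1961 was detected in neither strain, at 95.6 in C57BL/6 EVs and 94.3 in BALB/c EVs.

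The miRNAs whose genes lie near let-7 genes belong to the miR-99, miR-100 and miR-125 families. Of 11 arms, 7 were detected in C57BL/6 EVs, as were 33.6% of all miRNAs, and 3 in BALB/c EVs, as were 9.84%. miR-99a-5p, encoded next to let-7c, read 132 in C57BL/6 EVs and 114 in BALB/c EVs, with a relative log2 ratio of -0.35. miR-100-5p, encoded next to a let-7a gene, read 123 in C57BL/6 EVs and 113 in BALB/c EVs, at -0.79, and miR-125b-5p, encoded further along the same clusters, 120 in C57BL/6 EVs and 111 in BALB/c EVs, at -0.66. All of these lay under 3 SD above the background in BALB/c EVs, and each of their ranges included 0. The BALB/c spot of miR-100-5p was dimmer than its surroundings, which read 120. miR-99b-5p and miR-125a-5p, encoded on either side of let-7e, were, like let-7e itself, above the threshold in C57BL/6 alone, at 112 and 118, with BALB/c spots at 99.3 and 104. miR-125a-3p and miR-125b-1-3p were above the threshold in C57BL/6 alone too, at 115 and 106, with BALB/c spots at 100.4 and 104. Detection in C57BL/6 alone held for 24.2% of all miRNAs. The other 4 arms were detected in neither strain, as were 65.9% of all miRNAs.

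Most markers of blood cells, which also carry let-7, had ratios below 0 on the same relative scale, while their summed signals without scaling were higher in C57BL/6 EVs. Of 7 erythrocyte miRNAs, 6 were detected on both arrays, with relative log2 ratios of -0.71 to -0.17 and a median of -0.39, and miR-144-5p was detected in neither strain. Their summed signal was 5093 in C57BL/6 EVs and 1835 in BALB/c EVs, most of it from the red cell miRNA miR-451a, whose signal was 4081 in C57BL/6 EVs and 1500.2 in BALB/c EVs. Of 7 platelet miRNAs, 7 were detected in C57BL/6 EVs and 6 in BALB/c EVs, with a median of -0.69 over the 6 shared, 5 of them below 0, and summed signals of these 6 of 1092 in C57BL/6 EVs and 425 in BALB/c EVs. The medians were -1.48 for 3 muscle miRNAs and -0.91 for the arms of the endothelial miR-126a, and the shared liver miRNA of 3 listed, miR-192-5p, was at -1.48. The ranges of the 3 muscle miRNAs stayed below 0. Those of miR-126a-3p (-1.19 to 0.17) and miR-126a-5p (-2.84 to 1.24) included 0. miR-192-5p lay 2.22 SD above the background in BALB/c EVs, and its range had a lower limit of -4.60 and no upper limit. The summed signals were 365 in C57BL/6 EVs and 280 in BALB/c EVs for muscle. They were 101 in C57BL/6 and 43.5 in BALB/c for endothelium, and 12.5 in C57BL/6 and 8.90 in BALB/c for the liver's miR-192-5p. The liver's miR-122-5p was detected only in C57BL/6, with a signal of 9.94. The muscle miRNAs miR-206-3p and miR-499-5p and the liver miRNA miR-194-5p were detected in neither strain. The part of these cell types in the let-7 values was not tested.

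Set by signal relative to the shared median on both arrays, the miRNAs nearest to let-7a were miR-126a-3p of endothelium and platelets (distance 0.21 in log2 units), miR-19b-3p of the miR-17-92 cluster (0.33) and the shared spot of miR-486a-5p and miR-486b-5p of red cells (0.36). Their relative log2 ratios were -0.59, -0.72 and -0.45, and the spot of miR-126a-3p was dimmer than its surroundings on both arrays. This likeness rests on 2 arrays, and the distances make no allowance for spot noise. The relative log2 ratio of let-7a alone had a noise range of -0.92 to 0.43. Which miRNAs were nearest is thus not resolved.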

How the data were processed

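Plasma EV RNA of 1 pool per strain was measured on 3D-Gene chips. The labels name a Qiagen kit and cells as the RNA source, the methods an exosome RNA kit. The deposited scanner intensity is the median of each of 3200 spots and of its surroundings at 635 nm, scanned at several gains, with no subtraction or normalization stated. The deposited value table holds 1 linear intensity per detected miRNA. No source used here says how the authors made it. Its values equalled the intensity minus the BLANK mean, times 1.27 on the C57BL/6 array and 1.06 on the BALB/c array, and 0 detection calls differed.

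The mean and SD of 896 BLANK spots, without the 45 highest and 45 lowest, were 98.3 and 3.62 (C57BL/6) and 102 and 4.02 (BALB/c). Detection was set at 2 SD. Ranges used 2 SD of all BLANK spots (4.71 in C57BL/6, 5.04 in BALB/c), since the trimmed SD understates their spread, and cover spot noise only. The number of arrays limits the precision. Of 174 spots without a probe, 9 passed the threshold in C57BL/6 and 8 in BALB/c. Log2 ratios are C57BL/6 over BALB/c, for miRNAs detected on both arrays, minus their median. All members were named, with the miRNAs of the related lists detected on either array, markers detected on both, and the 3 miRNAs nearest to let-7a, the brightest member in C57BL/6. miR-1961 and markers under the threshold on an array were named after their values were seen. Members and lists were chosen with earlier results of these data known. The functions were tested on simulated arrays. Python 3.11.15, numpy 2.4.6, pandas 2.3.3 and R 4.3.3 with limma 3.58.1 were used. Sequences came from RefSeq.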

Additional observations from a re-analysis of the deposited data

How the results depend on the processing

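No paired analysis was possible because each strain had 1 array and no test was made. Members detected numbered 8 in C57BL/6 under each detection setting run. In BALB/c they numbered 6, and 5 both with detection at 3 SD and with no BLANK spot left out, since let-7g was then below the threshold. The relative median was -0.50 with the authors' value table, -0.81 at 3 SD, -0.67 with no BLANK spot left out, -0.62 with the local background subtracted (4 members with a ratio), -0.09 with normexp (offset 50) and quantile normalization, and -0.93 on the shared 75th percentile, where let-7c (-1.32), let-7b (-1.16) and let-7d (-1.10) were over 2-fold lower. Factors that are not set by the shared miRNAs changed its sign, to 1.48 left unscaled, 1.74 with each array set on the median of what it detected and 0.62 set on the spike controls. In each of these, 4 of 6 members had another sign and left their range. These settings take different log2 factors off the same ratios. The factor was 1.97 for the shared median and 0 when left unscaled. It was 0.86 on the spike controls and -0.26 on the median of what each array detected. Why these factors differ was not tested. With normexp, which adds an offset to both signals, let-7a (0.01) and let-7i (-0.09) had another sign. let-7i also went below 0 at 3 SD (-0.15) and on the shared 75th percentile (-0.43). The share of let-7a in C57BL/6, 18.9% and the largest as reported, was 11.9% with the local background subtracted and 12.7% with normexp, where let-7c was the brightest member (27.5% and 16.5%). The share of let-7c in BALB/c, 25.8% as reported, was 34.6% with the local background subtracted. Detection counts were not recomputed for the local background and normexp, which keep the calls. The signal over background limits let-7g, let-7i and the members under the threshold most.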
